A study of Homo sapiens with 9 samples.

Results

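The sorafenib-resistant pool of Huh7 cells (Huh7-R) was compared with the parental Huh7 cells it was raised from (Huh7-S), on 3 arrays of the pool and 3 of the parental cells out of 9 arrays in all. Arrays were chosen by their titles, and the comparison covered all 9784 genes that could be named in the deposited table. Huh7 is an established human hepatocellular carcinoma line. Huh7-R cells had been pulsed with 10 µM sorafenib for 4 hours weekly over 6 weeks, then kept in sorafenib that was raised stepwise to 6 µM. Huh7-R-A7 cells, on the other 3 arrays, grew from 1 colony of Huh7-R and so are 1 clone of the pool. Huh7-S cells were never given the drug. All 3 groups were grown in the same serum-supplemented minimum essential medium, the medium of the resistant cells also held DMSO as the drug's solvent, and sorafenib was taken away about a week (5 to 7 days) before RNA was collected, so no array shows cells under the drug. The comparison asks which transcripts differ once resistance has been acquired. It has limits as a model: there was 1 resistant pool from 1 selection, the study's methods call the 3 arrays of a group biological replicates, and the p-values therefore measure the spread between cultures of these lines and not between independent selections. The titles name all 3 clone arrays A7, but clone arrays 2 and 3 are described under different clone numbers.

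Sorafenib is an oral kinase inhibitor used against advanced liver cancer. It blocks RAF kinases, which pass signals from RAS to MEK and ERK and so drive division, and the receptors for VEGF and PDGF, through which tumours recruit blood vessels. Hepatocytes secrete most plasma proteins, assemble lipoproteins and clear drugs, and Huh7 cells keep much of this secretory programme, so a change in it is readily seen in their RNA. NF-kB is a transcription factor that inflammatory signals release to switch on chemokine genes, and E2F factors switch on the genes of DNA replication as cells enter S phase.

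Values are log2 signals after robust multi-array averaging, so a difference of 1 is a 2-fold change, and they are listed in the order of replicates 1, 2 and 3. Differences are Huh7-R minus Huh7-S with their standard error (SE), and a gene passed, or rose or fell, at a limma adjusted p (Benjamini-Hochberg, all 9784 genes) below 0.05. Values below log2 6 count as noise, after the limit the study used, and where a group's mean lay there the fold is a lower bound, with that group's values below the limit set to 6. The study's noise filter kept probe sets not below this limit on more than 85% of arrays. A gene below it on every Huh7-S array was thus kept only through resistant arrays, which favoured a rise. One below it on every resistant array was kept only through parental arrays, which favoured a fall. Counts of list members include such genes. Array medians lay between 8.22 and 8.38, and 5.0% to 6.1% of genes were below the noise limit on an array. Huh7-S replicate 1 stood apart: 402 genes differed by over 1 between it and the mean of Huh7-S replicates 2 and 3, whereas 10 genes differed that much between replicates 2 and 3. The matching counts in Huh7-R were 33 genes for replicate 1 against the mean of the other two and 7 genes for replicate 2 against 3. Results are therefore given with all arrays and, where it matters, without Huh7-S replicate 1. In bulk RNA, fewer cells of a type and less RNA per cell cannot be told apart.

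A large share of the genes differed between the pool and the parental cells. In Huh7-R against Huh7-S 4416 genes passed (45.1% of those tested), of which 1855 were higher in Huh7-R (19.0%) and 2561 were lower (26.2%). These shares of 19.0% and 26.2% are the background for each count of list members below. At least a 2-fold change was seen for 520 of the higher genes and 565 of the lower ones, and the median difference over all genes was -0.03. The values of the groups did not overlap for 5189 genes (53.0%). At the limits named in the study's methods, 251 genes passed (2.57%), 183 of them higher and 68 lower; these limits are a p below 0.0001, left unadjusted here because the study's own control of false positives was not repeated, and a fold over 3 or under 0.25. The balance of directions turned on scaling: 42.0% of the passing genes were higher as deposited, 47.2% after quantile normalization and 52.4% after each array was centred on its median. Without Huh7-S replicate 1, 4608 genes passed, 2016 higher and 2592 lower. Of the genes passing with all arrays, 3993 also passed without it in the same direction, 423 were lost, 615 others were gained and 0 changed sign.

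With values below the noise limit set to 6, the largest rise was that of OLR1, which encodes LOX-1, a scavenger receptor for oxidised low-density lipoprotein. OLR1 read 16.53, 15.84 and 15.88 in Huh7-R, against 7.09, 7.65 and 7.64 in Huh7-S. Every pool array lay far above every parental array, with a difference of 8.62 ± 0.26 (SE, n = 3 each, adjusted p = 5.92e-07), a 394-fold change. CXCL5, a chemokine that draws neutrophils, read 15.55, 15.71 and 15.83 in Huh7-R, against 9.44, 7.73 and 7.73 in Huh7-S, a 168-fold change (difference 7.40 ± 0.46, adjusted p = 1.68e-05). SLPI, a secreted inhibitor of neutrophil elastase, read 12.06, 13.52 and 13.33 in Huh7-R, against 5.45, 4.86 and 4.76 in Huh7-S. All 3 of its parental values lay below the noise limit, so the change was at least 125-fold (difference 7.95 ± 0.37, adjusted p = 4.5e-06). SLPI thus passed the study's noise filter only through resistant arrays, which favoured a rise. OLR1 was among 80 genes with a value above log2 16 on some array, the nominal limit of a 16-bit scan.

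Proteins of the extracellular matrix made up much of the rest of the top of the list. FBN2, which encodes the microfibril protein fibrillin-2, read 11.63, 11.58 and 11.58 in Huh7-R, against 4.39, 4.48 and 4.61 in Huh7-S, at least 48.5-fold higher (adjusted p = 6.89e-09). COL12A1, a collagen that sits on the surface of fibrils, read 12.97, 12.54 and 12.57 in Huh7-R, against 6.68, 7.02 and 6.72 in Huh7-S, 59.4-fold higher. EDIL3, a secreted integrin-binding protein, was at least 31.7-fold higher, and LOX, the enzyme that cross-links collagen and elastin, was 36.4-fold higher. MAP1B, a microtubule-binding protein best known from neurons, was 34.6-fold higher. The remaining large rises were those of C3 and of 3 probe sets annotated to processed pseudogenes. TMSB4XP8, TMSB4XP4 and RCN1P2 share their sequence with TMSB4X, TMSB4X and RCN1, so which gene gave the signal is uncertain; TMSB4X itself, the actin-binding peptide thymosin beta-4, had a difference of 4.34 ± 0.68 (adjusted p = 0.00145; looked up after the values were seen).

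The falls were ranked in the same way, and that of AMBP came first. AMBP, the precursor of the plasma proteins alpha-1-microglobulin and bikunin, read 7.19, 7.51 and 7.51 in Huh7-R, against 13.94, 13.10 and 12.96 in Huh7-S, 61.0-fold lower. MTTP, the transfer protein that loads lipid onto apolipoprotein B so that lipoproteins can be secreted, read 4.27, 4.28 and 4.19 in Huh7-R, against 10.66, 11.02 and 10.88 in Huh7-S. All 3 pool values lay below the noise limit, a fall of at least 28.9-fold (difference -6.61 ± 0.10, adjusted p = 2.57e-08), so its order relative to AMBP is not known. The clone values of MTTP lay there too. It passed the study's noise filter only through parental arrays, which favoured a fall. ITIH2, whose protein is a heavy chain that is joined to bikunin, read 7.20, 7.35 and 7.35 in Huh7-R, against 13.40, 9.95 and 9.88 in Huh7-S. The size of the ITIH2 fall turned on Huh7-S replicate 1, with a difference of -3.77 on all arrays and -2.61 without it.

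Several of the other large falls were of secreted or membrane proteins. SERPING1, the inhibitor of complement C1, was at least 13.4-fold lower, and SLC4A4, a sodium bicarbonate cotransporter, at least 12.2-fold lower. RELN, the secreted glycoprotein reelin, read 4.83, 4.91 and 4.78 in Huh7-R, against 8.26, 11.10 and 11.00 in Huh7-S, at least 17.4-fold lower. CTSE, an aspartic protease typical of stomach lining, read 5.30, 5.19 and 5.68 in Huh7-R, against 7.32, 12.20 and 12.37 in Huh7-S, at least 24.8-fold lower. For both genes Huh7-S replicate 1 lay between the pool and the other parental arrays, and without it RELN was at least 33.1-fold and CTSE at least 78.1-fold lower. SERPING1, SLC4A4 and RELN lay below the noise limit on every resistant array, so the filter kept them only through parental arrays. SCARA3, FRAS1, AGMAT and SPTSSB fell by differences of -4.07, -3.86, -3.65 and -3.60. PDZK1P1 fell too, but shares sequence with PDZK1, a scaffold for the lipoprotein receptor SR-BI, whose own difference was -3.42 ± 0.31 (looked up after the values were seen), so their signals cannot be kept apart.

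**Figure D1:**
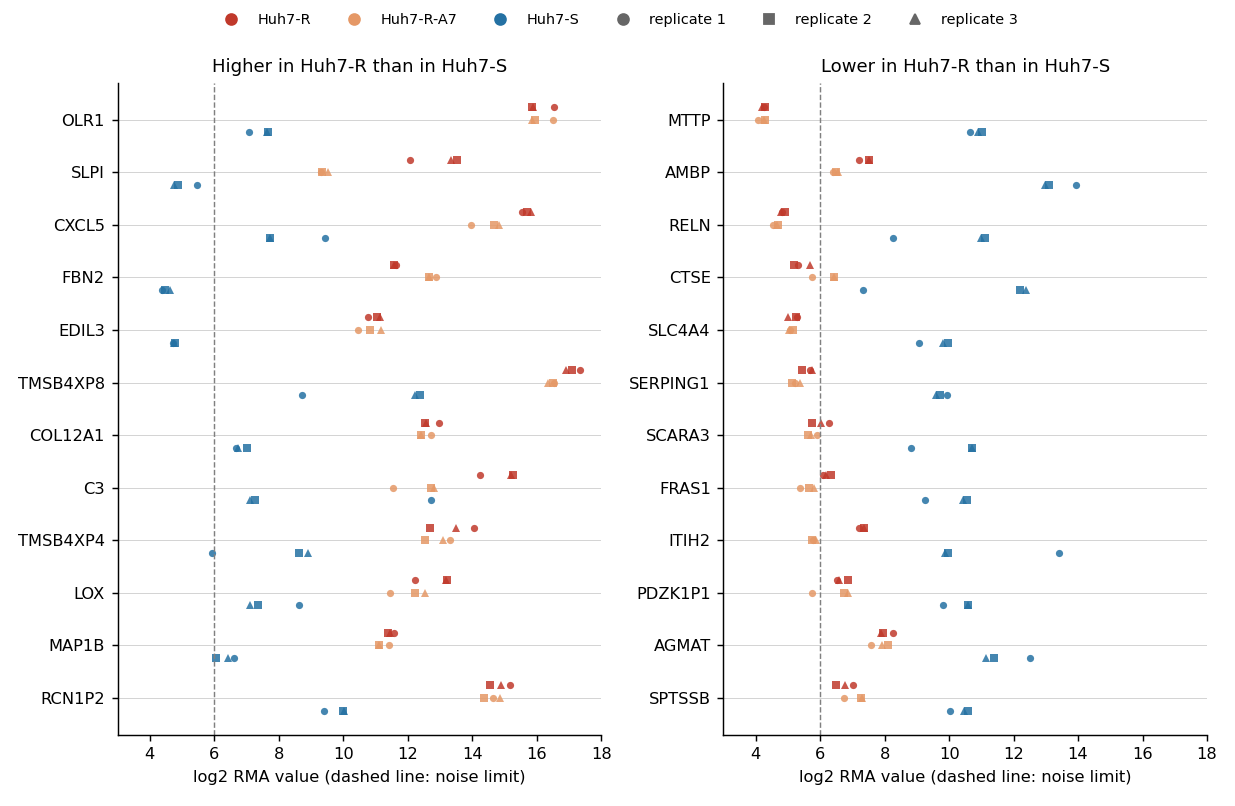
Log2 signal on each array for the 12 largest rises (left) and 12 largest falls (right) of Huh7-R against Huh7-S, with Huh7-R, Huh7-R-A7 and Huh7-S in 3 colours and replicates 1 to 3 as circle, square and triangle. The dashed line is the noise limit of log2 6. In each gene shown the pool and parental values do not overlap, as the choice of genes required, and for C3, CTSE and ITIH2 the parental circle lies far from the parental square and triangle.

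Chemokines and genes of the NF-kB response rose together. Of 33 measured members 23 rose and 0 fell, against 19.0% and 26.2% of all genes, and their median difference was 0.71, against -0.03 for all genes. The fall count was 1 with 18 rises without Huh7-R replicate 3, and 1 with 20 rises without Huh7-S replicate 3. The neutrophil chemokines CXCL1, CXCL2, CXCL5 and CXCL6 were among those that rose, as was CCL20, which draws lymphocytes and dendritic cells. NFKBIZ, a nuclear cofactor of NF-kB, read 10.60, 10.61 and 10.83 in Huh7-R, against 8.12, 8.20 and 8.21 in Huh7-S (difference 2.51 ± 0.07). IRAK3, an inhibitor of interleukin-1 and Toll-like receptor signalling, read 9.23, 9.80 and 9.82 in Huh7-R, against 4.17, 4.02 and 4.07 in Huh7-S, at least 12.3-fold higher. Other brakes on NF-kB rose as well: TNIP3, below the noise limit in Huh7-S, was at least 2.22-fold higher, and the differences were 1.56 for TNFAIP3, 1.53 for TNIP1 and 0.71 for NFKBIA. The NF-kB subunit genes moved little: RELA and NFKB1 had differences of -0.03 and -0.14 and did not pass, and NFKB2 and REL rose by 0.38 and 0.39. ICAM1, an adhesion molecule for leukocytes, read 11.79, 11.70 and 11.64 in Huh7-R, against 11.17, 10.55 and 10.29 in Huh7-S (difference 1.04 ± 0.19, adjusted p = 0.00346).

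Promoters of 3 of these genes are printed because each holds an NF-kB word. The words searched on both strands were GGAATTTCC and GGACTTTCC, in the 250 bases before and 50 after each start site (RefSeq, GRCh38.p14). They stood in 11 of the 20 promoters found for members that rose (55.0%), in 0.853% of the 7499 promoters found for genes tested and in 0.842% of all 27305 promoters. Of genes at least 2-fold higher in Huh7-R, 2.46% held one. The list was chosen as chemokines and genes of the NF-kB response, so a high share can come with membership alone. The share among members that did not rise was not computed. The capitals mark the word; CXCL5 is at chr4:73998628-73998927 (minus strand), NFKBIZ at chr3:101827740-101828039 (plus) and CXCL1 at chr4:73869143-73869442 (plus), with the word starting at -90, -222 and -78 from the start site. CXCL1 and NFKBIZ were singled out after their values were seen, and CXCL1 read 9.80, 10.10 and 10.14 in Huh7-R, against 7.06, 8.09 and 7.99 in Huh7-S.
CXCL5: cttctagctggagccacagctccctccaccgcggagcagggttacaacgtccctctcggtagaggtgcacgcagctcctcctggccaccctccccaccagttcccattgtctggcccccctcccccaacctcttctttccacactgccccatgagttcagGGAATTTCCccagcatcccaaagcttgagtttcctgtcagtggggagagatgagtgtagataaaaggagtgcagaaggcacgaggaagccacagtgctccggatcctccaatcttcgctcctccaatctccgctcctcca
NFKBIZ: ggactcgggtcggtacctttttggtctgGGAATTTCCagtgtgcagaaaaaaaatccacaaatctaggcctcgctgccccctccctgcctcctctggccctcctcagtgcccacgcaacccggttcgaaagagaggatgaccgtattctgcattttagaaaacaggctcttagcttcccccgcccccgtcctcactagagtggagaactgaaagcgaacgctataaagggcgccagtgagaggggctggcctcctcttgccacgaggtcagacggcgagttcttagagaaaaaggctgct
CXCL1: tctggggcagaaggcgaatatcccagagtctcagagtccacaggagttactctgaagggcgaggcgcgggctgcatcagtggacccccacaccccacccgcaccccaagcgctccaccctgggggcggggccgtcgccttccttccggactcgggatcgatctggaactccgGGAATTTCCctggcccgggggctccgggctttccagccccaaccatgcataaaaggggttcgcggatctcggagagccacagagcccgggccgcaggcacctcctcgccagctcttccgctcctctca

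Genes that show a cell to lymphocytes and natural killer cells were also higher. Of 10 measured members of antigen presentation and natural killer ligands 8 rose and 0 fell, against 19.0% and 26.2% of all genes. Their median difference was 1.04. CD47, the surface protein that tells phagocytes not to engulf a cell, read 10.44, 10.82 and 11.12 in Huh7-R, against 7.01, 6.83 and 6.86 in Huh7-S, 14.9-fold higher. MICB, a ligand of the killer cell receptor NKG2D, had a difference of 1.57 ± 0.17, and PVR, a ligand of killer cell and T-cell receptors, of 1.35 ± 0.14. B2M, the light chain of class I molecules, had a difference of 1.17 ± 0.12. Of 21 measured interferon-response genes 12 rose and 4 fell (median 0.45). GBP3, a guanylate-binding protein, was at least 8.78-fold higher, IFITM2, a membrane protein that hinders virus entry, 8.81-fold higher, and IFNGR1, the interferon-gamma receptor, 8.52-fold higher. USP18, which interferon induces and which damps interferon receptor signalling, was at least 4.41-fold lower, and the virus sensor RIGI had a difference of -0.40.

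Most hypoxia targets rose, and glycolysis genes rose more often than they fell. HIF1A, the oxygen-regulated transcription factor, read 16.80, 16.35 and 16.46 in Huh7-R, against 14.91, 15.48 and 15.37 in Huh7-S (difference 1.28 ± 0.16, adjusted p = 0.000548). Of 27 measured hypoxia targets 20 rose and 0 fell, with a median difference of 0.92. Without Huh7-S replicate 1, 17 rose and 1 fell. STC1, the secreted hormone stanniocalcin-1, read 9.01, 10.29 and 10.13 in Huh7-R, against 3.96, 4.33 and 4.00 in Huh7-S, at least 14.0-fold higher. PDK1, a kinase that inhibits pyruvate dehydrogenase, had a difference of 2.04 ± 0.36. ADM, the vessel-dilating peptide adrenomedullin, was at least 3.72-fold higher (looked up after the values were seen). The median level of the list was 9.36, 10.18 and 10.13 on the Huh7-R arrays, 8.20, 9.66 and 9.66 on the Huh7-R-A7 arrays and 8.64, 8.43 and 8.29 on the Huh7-S arrays. Replicate 1 was thus the lowest of its group in both resistant lines and the highest in the parental cells. Of 21 glycolysis genes 11 rose, 2 fell and 8 did not pass, against 19.0% higher and 26.2% lower of all genes, and the fall count was 1 without Huh7-R replicate 1, Huh7-R replicate 3 or Huh7-S replicate 2. HK1, the first enzyme of glycolysis, had a difference of 2.14 ± 0.09, and the glucose transporter SLC2A1 one of 1.82 ± 0.17.

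Matrix genes rose more often than they fell. Of 40 measured matrix proteins and matrix enzymes 21 rose, 8 fell and 11 did not pass, with a median difference of 0.61. Of all genes 19.0% were higher and 26.2% lower. Besides those above, TNC (the glycoprotein tenascin-C) was at least 4.94-fold higher, and VCAN, FBN1 and SPARC had differences of 2.99, 2.58 and 2.23. The falls were led by NID1 at -2.90, the basement-membrane linker nidogen, with FBLN1, a fibulin, at least 2.32-fold lower and the laminin chain LAMC1 at -0.99. Of 26 mesenchymal and cytoskeletal genes 13 rose and 3 fell (median 0.48), and 1 fell without Huh7-R replicate 2 or without Huh7-S replicate 2. LGALS1, the lectin galectin-1, read 9.02, 9.21 and 8.97 in Huh7-R, against 4.68, 5.23 and 5.32 in Huh7-S, at least 8.37-fold higher. CD44, the hyaluronan receptor, was at least 6.56-fold higher. Junction genes did not fall in step with this. Of 22 measured epithelial junction genes 8 rose and 3 fell, against 19.0% higher and 26.2% lower of all genes. Without Huh7-S replicate 1, 9 rose and 6 fell. CDH1, which encodes E-cadherin, read 10.69, 11.74 and 11.72 in Huh7-R, against 9.28, 9.68 and 9.56 in Huh7-S (difference 1.88 ± 0.33). JUP, plakoglobin of the desmosome, had a difference of 2.77 ± 0.23.

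Of 13 fibroblast and stellate cell markers 2 were among the genes tested, and both rose, with parental means below the noise limit: LUM (lumican) was at least 6.30-fold and COL1A2 at least 4.88-fold higher. Both lay below that limit on every Huh7-S array, so they passed the study's noise filter only through resistant arrays. The clone arrays alone would have kept both. The filter thus favoured rises without fixing those of the pool, and they say nothing of the markers that were not measured. The log2 of the summed linear signals of LUM and COL1A2 ranged from 9.40 to 9.61 in Huh7-R and from 6.28 to 6.48 in Huh7-S. The endothelial marker ESAM, 1 of 11 that could be tested, had values below the noise limit on all Huh7-R and Huh7-S arrays. Of 12 leukocyte markers, CD68 and LYZ could be tested, and CD68, a lysosomal glycoprotein of macrophages, read 12.73, 13.28 and 13.19 in Huh7-R, against 11.09, 8.47 and 8.11 in Huh7-S. LYZ (lysozyme) did not pass, with a difference of -0.92. Whether other cell types had a part in the matrix and chemokine rises was not tested. Of 10 bile duct markers 4 could be tested: EPCAM and ANXA4 rose by 1.57 and 2.82, SOX9 fell by 2.39 and KRT19 did not pass (0.65). EPCAM did not pass when any single array of Huh7-R or Huh7-R-A7 was left out.

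**Figure D2:**
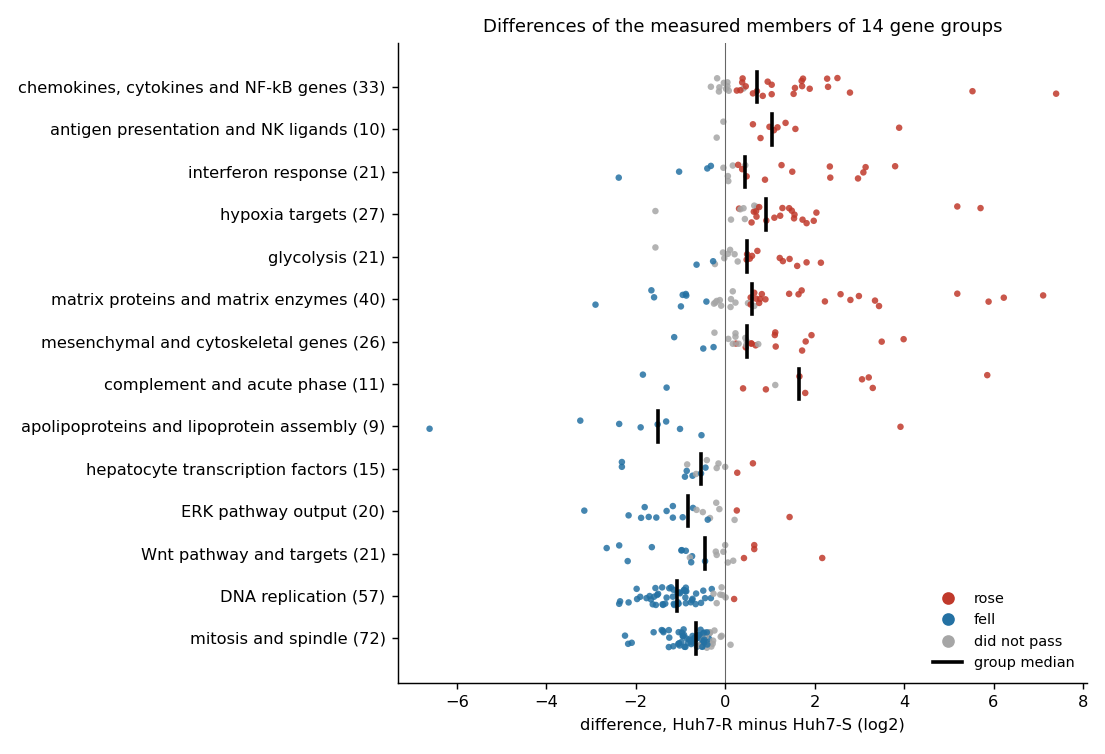
Differences, Huh7-R minus Huh7-S on the log2 scale, of the measured members of 14 gene groups, 1 point per gene, with the number of members in parentheses. Red points rose, blue points fell and grey points did not pass, and the black bar is the group's median. The 2 lowest groups, DNA replication and mitosis and spindle, lie almost wholly left of 0, at medians of -1.07 and -0.65, and the chemokine group holds no blue point.

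The machinery of DNA replication fell almost as a block. Of 57 measured members 50 fell and 1 rose, with a median difference of -1.07, and without Huh7-S replicate 1 the counts were 48 and 1. The MCM genes encode the helicase that unwinds the origins. MCM5 read 8.68, 8.41 and 8.23 in Huh7-R, against 10.96, 10.90 and 10.58 in Huh7-S (difference -2.37 ± 0.15, adjusted p = 1.83e-05). MCM6 read 10.65, 10.43 and 10.30 in Huh7-R, against 12.49, 13.05 and 12.90 in Huh7-S, and MCM2 read 6.78, 6.46 and 6.36 in Huh7-R, against 8.90, 8.78 and 8.40 in Huh7-S. The pool lay below the parental cells on each array of these 3 genes. Falls of other members ran from -1.98 for the replication initiator MCM10 and -1.97 for the origin protein ORC1 to -0.30 for ORC5. ORC4 was the member that rose, by 0.20, and those that did not pass were POLD1, POLD2, LIG1, E2F3, CCNE1 and CCNE2. Mitotic genes fell less far: of 72 measured 55 fell and 0 rose, with a median of -0.65. CDC25A, the phosphatase that releases CDK2, had a difference of -2.24 ± 0.18, and PLK4, the kinase that starts centriole duplication, one of -2.17 ± 0.19. MKI67, which encodes the proliferation marker Ki-67, read 13.98, 13.49 and 13.52 in Huh7-R, against 14.70, 14.51 and 14.46 in Huh7-S (difference -0.89 ± 0.17, adjusted p = 0.00345).

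Promoters of MCM2, MCM6 and DTL are printed as those of genes that fell and hold an E2F word. DTL, a subunit of the ligase that destroys the licensing factor CDT1 in S phase, had a difference of -1.90 ± 0.18 and was singled out after its values were seen. The words TTTCGCGC and TTTGGCGC were searched on both strands, so that a palindromic stretch counts on each. They stood in 14 of 44 promoters of replication genes that fell (31.8%), in 2.27% of the promoters of genes tested and in 6.17% of those of genes at least 2-fold lower. The capitals mark the words; MCM2 is at chr3:127598161-127598460 (plus strand), MCM6 at chr2:135876394-135876693 (minus) and DTL at chr1:212035498-212035797 (plus). Among mitotic genes that fell, 69.6% of 46 promoters held a CCAAT box, in either orientation, against 38.0% of promoters of genes tested, and the share among replication genes that fell was close to it at 63.6% of 44. The presence of a word is a description of the sequence and not of factor binding. The replication and mitotic lists were chosen by function, so their shares of words can come with membership alone. Shares among members that did not fall were not computed.
MCM2: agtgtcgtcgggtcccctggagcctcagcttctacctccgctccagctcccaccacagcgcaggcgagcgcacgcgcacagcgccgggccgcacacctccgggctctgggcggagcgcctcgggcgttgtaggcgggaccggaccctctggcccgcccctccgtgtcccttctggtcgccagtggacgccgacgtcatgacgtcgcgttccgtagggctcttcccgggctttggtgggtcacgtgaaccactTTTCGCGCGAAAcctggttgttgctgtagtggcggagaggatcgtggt
MCM6: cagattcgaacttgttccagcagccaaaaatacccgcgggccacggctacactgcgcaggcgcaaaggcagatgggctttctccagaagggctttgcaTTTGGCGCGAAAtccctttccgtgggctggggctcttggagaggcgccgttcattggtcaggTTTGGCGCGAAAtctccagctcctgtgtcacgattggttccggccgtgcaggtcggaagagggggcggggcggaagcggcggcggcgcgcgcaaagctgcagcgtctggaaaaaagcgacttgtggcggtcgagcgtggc
DTL: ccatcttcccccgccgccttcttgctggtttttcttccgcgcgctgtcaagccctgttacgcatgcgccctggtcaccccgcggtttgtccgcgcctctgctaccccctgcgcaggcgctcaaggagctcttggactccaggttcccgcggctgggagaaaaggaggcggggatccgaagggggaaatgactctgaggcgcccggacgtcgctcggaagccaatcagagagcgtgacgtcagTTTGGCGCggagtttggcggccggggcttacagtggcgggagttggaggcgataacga

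RNAs that report ERK activity were mostly lower in Huh7-R. Of 20 measured output genes 12 fell and 2 rose, against 26.2% lower and 19.0% higher of all genes. Their median was -0.84. The rises were DUSP10 and CXCL8, and leaving out any single Huh7-R or Huh7-R-A7 array left 1 rise. Among the falls, DUSP6 and ETV4 lay below the noise limit on every Huh7-R and Huh7-R-A7 array. They passed the study's noise filter only through parental arrays, which favoured a fall. DUSP6, the phosphatase that ERK induces to switch itself off, read 5.09, 5.16 and 5.22 in Huh7-R, against 8.39, 8.31 and 8.23 in Huh7-S. It was below the noise limit on all pool arrays and at least 4.96-fold lower (difference -3.15 ± 0.09, adjusted p = 4.89e-07). SPRY4, a feedback inhibitor of receptor signalling, and the ETS factors ETV4, ETV5 and ETV1 fell to means below the noise limit in Huh7-R, against means of 6.14, 6.19, 6.49 and 6.50 in Huh7-S, so their falls are bounded only at 1.13-fold, 1.37-fold, 1.41-fold and 1.42-fold or more. CCND1, which encodes the G1 cyclin D1, read 12.31, 11.81 and 11.69 in Huh7-R, against 13.06, 14.00 and 13.88 in Huh7-S (looked up after the values were seen). Core members of the route itself, not all of them kinases, had a median difference of 0.15. Of 16 measured 5 rose (8 after each array was centred on its median) and 2 fell, against 19.0% and 26.2% of all genes. The fall count was 1 when any of Huh7-R replicates 2 and 3 or Huh7-S replicates 2 and 3 was left out. SOS1, an activator of RAS, had a difference of 1.37 ± 0.10 and the scaffold KSR1 was at least 1.58-fold higher, while the docking protein GAB1 had -1.93 ± 0.09. Of 14 kinases that sorafenib blocks, 1 could be tested: ARAF had a difference of -0.12 (adjusted p = 0.134).

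Receptor kinases and their ligands went both ways, with 6 rises and 8 falls among 23, against 19.0% higher and 26.2% lower of all genes. AXL, a receptor kinase of the TAM family, read 10.66, 9.89 and 9.82 in Huh7-R, against 6.50, 5.82 and 6.22 in Huh7-S, 15.4-fold higher. The related receptors MERTK and TYRO3 fell by 1.93 and 0.89 on the log2 scale. PDGFD, a ligand of the PDGF receptor, was at least 3.19-fold higher, and EPHA2, an ephrin receptor, 4.48-fold lower. The study tested inhibitors of SRC-family kinases and SYK, and LYN, FRK and YES1 were fixed by name. Of 18 listed SRC-family, ABL and SYK kinases 7 were measured, of which 2 rose, 1 fell and 4 did not pass. Of all genes 19.0% were higher and 26.2% lower. The study reported more phosphorylation of Src, Yes, Fyn, Lck and Lyn in resistant than in parental cells, which RNA levels do not measure. LYN read 9.34, 9.23 and 9.25 in Huh7-R, against 8.37, 7.55 and 7.31 in Huh7-S (difference 1.53 ± 0.24). FRK had a difference of 0.50 ± 0.12 and ABL1 of -0.65 ± 0.07, and YES1 did not pass (0.05 ± 0.07, adjusted p = 0.547). TGFB2, HIF1A, ICAM1 and ETS1, which the study named on these samples, all rose here, and so are not independent evidence of a direction. TGFB2, a transforming growth factor, read 12.90, 12.53 and 12.53 in Huh7-R, against 8.95, 10.19 and 10.03 in Huh7-S, and ETS1, a transcription factor, was at least 1.95-fold higher. Of 21 Wnt genes 4 rose and 10 fell, against 19.0% higher and 26.2% lower of all genes (median -0.45, against -0.03). They included LGR5, a receptor for R-spondins, at least 4.54-fold lower, and DKK1, a secreted Wnt inhibitor, 5.18-fold lower.

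Lipoprotein and complement genes mostly moved in opposite directions. Lipoprotein genes fell: 8 of 9 measured members fell and PLTP, the phospholipid transfer protein, rose, with a median of -1.51. Without Huh7-R replicate 1, 5 fell. APOA2 read 6.83, 6.81 and 6.67 in Huh7-R, against 11.10, 9.67 and 9.28 in Huh7-S, 9.46-fold lower. APOB, the structural protein of very-low-density lipoprotein, was 5.16-fold lower, and PLTP was 15.1-fold higher. Complement mostly went the other way, with 8 of 11 listed members rising and 2 falling (median 1.66). SERPING1, the inhibitor of C1, was counted in another list and fell, with a difference of -4.13. C3, the centre of the complement cascade, read 14.24, 15.27 and 15.19 in Huh7-R, against 12.73, 7.27 and 7.12 in Huh7-S. Its difference was 5.86 ± 1.38 (adjusted p = 0.0102) with all arrays and 7.71 (adjusted p = 3.41e-05) without Huh7-S replicate 1, whose value lay nearer to the pool than to the other parental arrays. C4BPA, which holds complement in check, was at least 6.67-fold higher and the decay-accelerating factor CD55 9.27-fold higher, while the lectin-pathway genes MBL2 and MASP1 fell by 1.84 and 1.31.

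Albumin and alpha-fetoprotein were lower, and the clotting factors went both ways. ALB read 14.87, 15.16 and 15.16 in Huh7-R, against 17.28, 16.54 and 16.44 in Huh7-S (difference -1.69 ± 0.34, adjusted p = 0.00471). AFP, the fetal plasma protein used as a liver tumour marker, read 16.09, 16.72 and 16.75 in Huh7-R, against 18.16, 18.09 and 17.95 in Huh7-S (difference -1.54 ± 0.31, adjusted p = 0.00526). Both genes were close to the top of the scale in the parental cells. Of 13 plasma carriers 2 rose and 5 fell, with 4 rises and 4 falls without Huh7-S replicate 1 and 0 rises without Huh7-R replicate 2, Huh7-R replicate 3, Huh7-S replicate 2 or Huh7-S replicate 3. Of 14 clotting genes 5 rose and 5 fell, against 19.0% higher and 26.2% lower of all genes. There were 2 rises without Huh7-S replicate 2 and 3 without Huh7-R replicate 2, Huh7-R replicate 3 or Huh7-S replicate 3. F5 and CPB2, a clotting cofactor and an inhibitor of clot lysis, were 7.81-fold and 9.37-fold lower. FGB, a chain of fibrinogen, had a difference of 2.34 (adjusted p = 0.0137) and lost its call once Huh7-S replicate 2 was left out. Of 15 hepatocyte transcription factors 7 fell and 2 rose, 1 without Huh7-R replicates 2 or 3 or Huh7-S replicates 2 or 3. ONECUT1 (HNF6) read 9.66, 10.06 and 9.96 in Huh7-R, against 11.80, 12.47 and 12.36 in Huh7-S, and its relative ONECUT2 had the same difference of -2.31. Of 17 hepatocyte markers 13 were measured, 7 of which fell and 2 rose; 0 rose without Huh7-S replicate 2, and 1 without Huh7-R replicates 2 or 3 or Huh7-S replicate 3. The log2 of their summed linear signals was 17.86 to 18.20 in Huh7-R and 18.40 to 19.14 in Huh7-S. The brightest genes dominate such a sum, and the median difference of the 13 measured markers was -1.29.

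Genes that move or modify drugs went both ways. Of 13 measured drug and bile transporters 6 fell and 2 rose, against 26.2% lower and 19.0% higher of all genes, and 4 fell and 2 rose after each array was centred on its median. ABCG2, an efflux pump, read 5.53, 5.43 and 5.50 in Huh7-R, against 7.38, 7.61 and 7.50 in Huh7-S, at least 2.82-fold lower. ABCB1, the pump P-glycoprotein, read 6.10, 6.53 and 6.47 in Huh7-R, against 7.21, 7.75 and 7.65 in Huh7-S, 2.25-fold lower. The rises were ABCC1 and ABCC3, export pumps for conjugates, by 0.63 and 0.50. Among 11 cytochromes P450 4 rose and 4 fell, against 19.0% higher and 26.2% lower of all genes. CYP1B1, an extrahepatic enzyme of oestrogen and hydrocarbon metabolism, was at least 21.7-fold higher. Of 21 conjugating enzymes 7 fell and 3 rose (1 without Huh7-R replicate 2, Huh7-R replicate 3, Huh7-S replicate 2 or Huh7-S replicate 3). Those counts were close to the shares of all genes, and the median difference was -0.02. SULT2A1, the hepatic sulphotransferase for steroids, was at least 4.29-fold lower, and UGT2A3, a glucuronosyltransferase, at least 2.31-fold higher. Of 28 NRF2 targets, the antioxidant response, 12 fell and 5 rose (9 after each array was centred, 3 without Huh7-R replicate 2, Huh7-R replicate 3 or Huh7-S replicate 3). Of all genes 26.2% were lower and 19.0% higher. SLC7A11, the cystine importer that feeds glutathione synthesis, was 4.43-fold lower, and GCLM, a subunit of the enzyme of its first step, 3.07-fold lower.

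**Figure D3:**
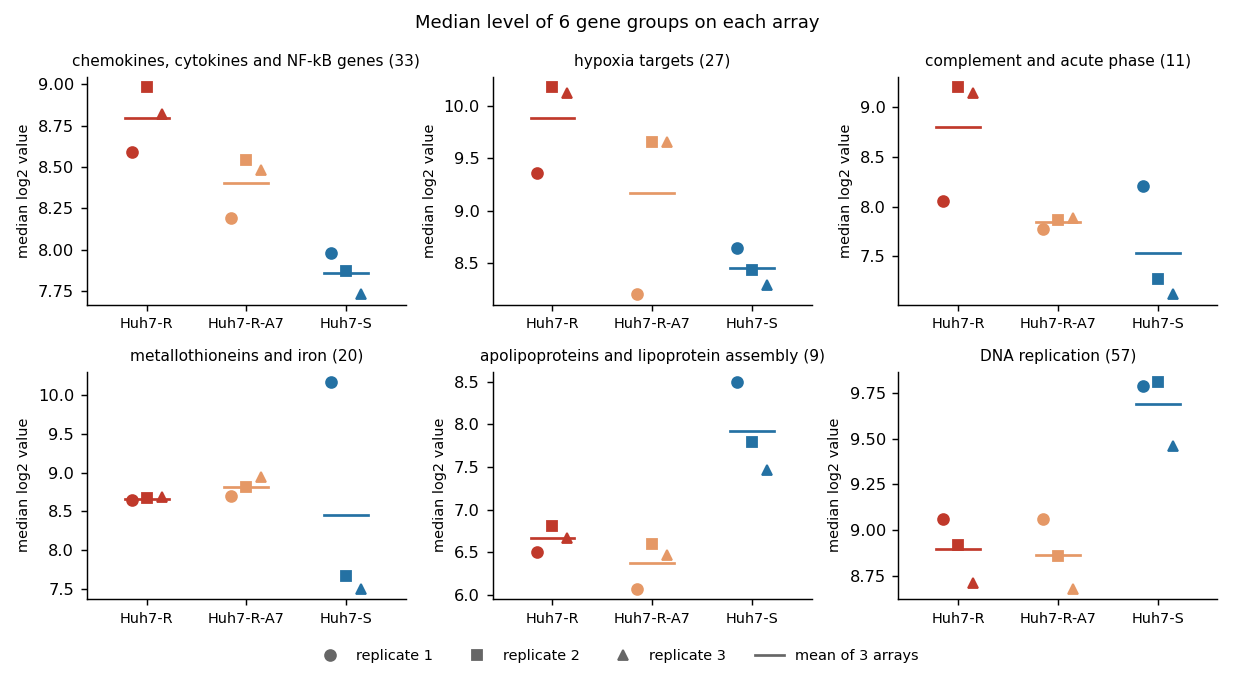
Median log2 level of 6 gene groups on each array, with Huh7-R, Huh7-R-A7 and Huh7-S side by side, replicates 1 to 3 as circle, square and triangle and a bar at the mean of the 3 arrays. The vertical axes differ between panels and do not start at 0. In the metallothionein and iron panel the parental circle lies at 10.17, above the pool, and the other 2 parental points at 7.67 and 7.50, below it.

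Where the parental arrays disagreed, the comparison depended on which was kept. The metallothioneins, which bind zinc and copper, were the clearest case and were examined after their values were seen. MT2A read 13.02, 13.45 and 13.38 in Huh7-R, against 15.10, 8.63 and 8.21 in Huh7-S. With all arrays its difference of 2.64 did not pass (adjusted p = 0.217), and without Huh7-S replicate 1 it was 4.86 (adjusted p = 3.72e-06). MT1F read 9.73, 10.27 and 10.26 in Huh7-R, against 13.21, 6.00 and 5.91 in Huh7-S, so that replicate 1 lay above the pool and the other two below it. Over the metallothionein and iron list 6 of 20 rose and 2 fell with all arrays, and 15 rose and 2 fell without Huh7-S replicate 1. SLC40A1, the iron exporter ferroportin, fell either way, with differences of -2.30 and -2.61. The acute-phase carrier ORM2 had a difference of 2.65 (adjusted p = 0.165) with all arrays and 4.57 (adjusted p = 0.000177) without replicate 1. A2M, a broad protease inhibitor of plasma, read 7.93, 8.66 and 8.53 in Huh7-R, against 13.45, 6.86 and 6.76 in Huh7-S, and its difference was -0.65 (adjusted p = 0.774) with all arrays and 1.56 (adjusted p = 0.0109) without replicate 1. AKR1C2, an aldo-keto reductase, passed with all arrays (2.57, adjusted p = 0.024) but not when any of Huh7-R replicates 1, 2 and 3 or Huh7-S replicates 2 and 3 was left out.

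**Figure D4:**
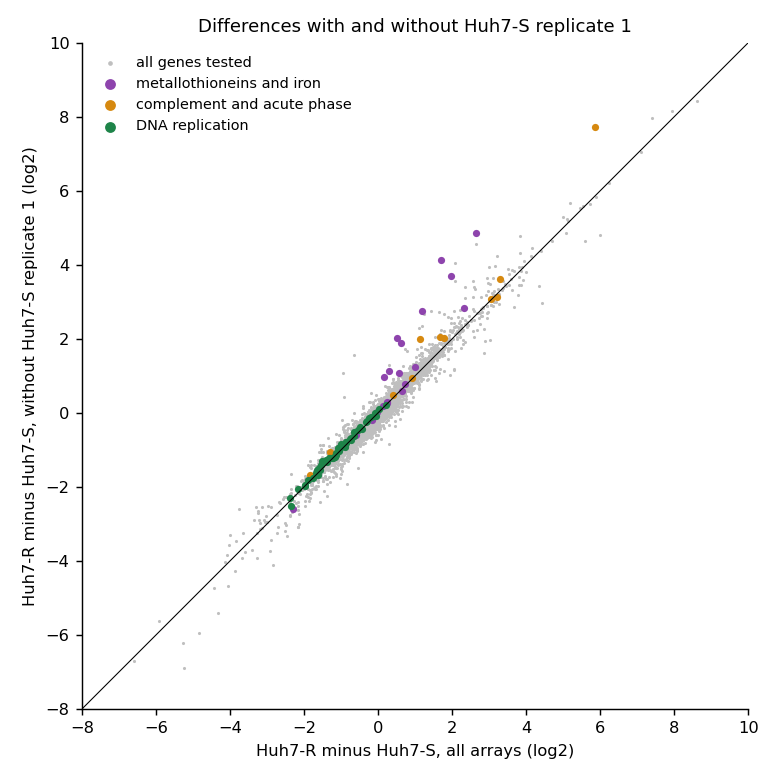
Each gene's difference, Huh7-R minus Huh7-S on the log2 scale, without Huh7-S replicate 1 (vertical) against the difference with all arrays (horizontal); the line marks equal values. DNA replication genes lie on the line, while metallothioneins such as MT2A (2.64 with all arrays, 4.86 without) and C3 (5.86 and 7.71) lie above it.

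The pool and its clone were close but not the same. In Huh7-R against Huh7-R-A7 844 genes passed (8.63%), 442 higher in the pool and 402 lower, and 54 and 51 of these differed at least 2-fold. The count turned on single arrays: it was 410 without Huh7-R replicate 2, 393 without Huh7-R replicate 3, 523, 452 and 482 without Huh7-R-A7 replicates 1, 2 and 3, and 1330 without Huh7-S replicate 1, which enters through the shared estimate of spread. Of the genes passing in Huh7-R against Huh7-S, 647 (14.7%) also differed between pool and clone; the comparisons share the pool arrays. OLR1 read 16.53, 15.84 and 15.88 in Huh7-R, against 16.51, 15.95 and 15.84 in Huh7-R-A7 (difference -0.02 ± 0.26, adjusted p = 0.989). SLPI by contrast was 11.9-fold higher in the pool, at 12.06, 13.52 and 13.33 in Huh7-R, against 9.31, 9.34 and 9.54 in Huh7-R-A7.

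A test for a change beyond 2-fold (limma's treat) was passed by 12 genes, 7 higher and 5 lower in Huh7-R. MBNL3, a splicing regulator, read 10.72, 10.72 and 10.71 in Huh7-R, against 6.80, 7.29 and 7.41 in Huh7-R-A7, 11.7-fold higher in the pool. Against Huh7-S the pool was lower, with a difference of -1.09 (adjusted p = 0.00966). MAGEB2 and MAGEC2 are cancer-testis antigens, silent in most adult tissues. MAGEB2 read 9.24, 9.29 and 9.06 in Huh7-R, against 6.16, 5.60 and 5.83 in Huh7-R-A7. MAGEC2 read 7.72, 7.72 and 7.69 in Huh7-R, against 11.54, 11.67 and 11.76 in Huh7-R-A7, 15.4-fold lower in the pool. Both were above the parental level in the pool, where all 3 measured antigens of 39 listed rose against Huh7-S, as did 19.0% of all genes. MAGEC2 lay below the noise limit on every Huh7-S array, so it passed the study's noise filter only through resistant arrays. The clone arrays alone would have kept it, so the filter favoured a rise without fixing that of the pool. The antigens that were not measured could not be counted. ULBP3 (a ligand of NKG2D), whose mean in the pool lay just below the noise limit, was at least 4.70-fold lower in the pool, and ABCC2 (a canalicular export pump) had a difference of -2.16. TNC, with a difference of -1.98, passed for any difference (adjusted p = 0.00118) but not for one beyond 2-fold (treat, adjusted p = 0.257). Of the hypoxia list 8 members were higher in the pool than in the clone and 0 lower, and of the chemokine list 5 were higher and 1 lower. STC1 read 9.01, 10.29 and 10.13 in Huh7-R, against 5.37, 6.99 and 7.11 in Huh7-R-A7. It passed for any difference (adjusted p = 0.00744) but not for one beyond 2-fold (treat, adjusted p = 0.465).

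**Figure D5:**
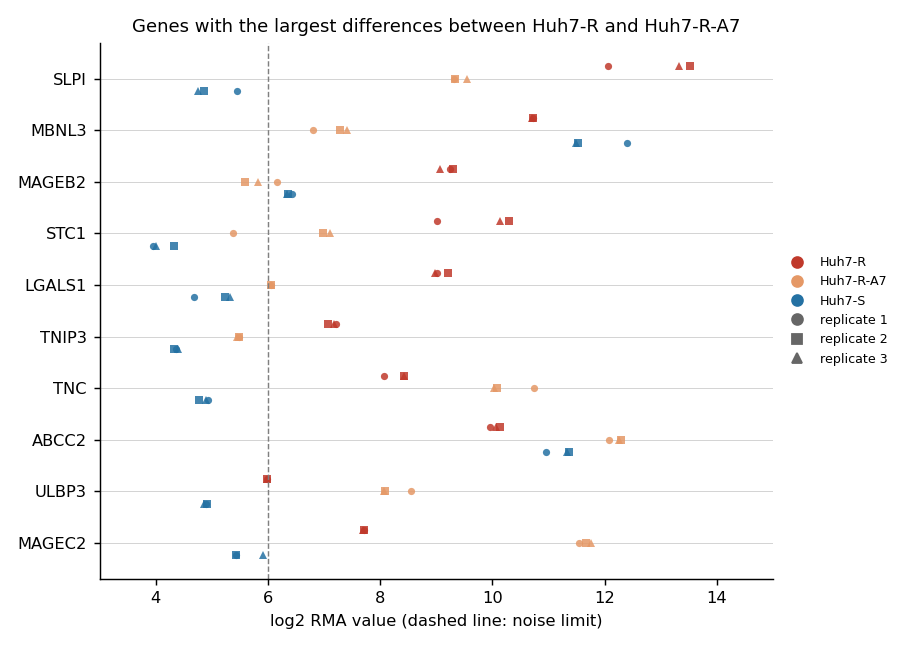
Log2 signal on each array for 10 genes with large differences between Huh7-R and Huh7-R-A7, with Huh7-R, Huh7-R-A7 and Huh7-S in 3 colours and replicates 1 to 3 as circle, square and triangle; the dashed line is the noise limit of log2 6. MBNL3 in the pool (10.71 to 10.72) lies below the parental cells (11.49 to 12.39) but nearer to them than the clone does. MAGEC2 lies highest in the clone (11.54 to 11.76).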

How the data were processed

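Total RNA of each culture went on its own Affymetrix Human Transcriptome Array (9 in all). The authors ran RMA in Affymetrix Expression Console and deposited log2 values, per the labels. The program's version is not given in the sources used here, nor is a genome build. Every deposited probe set had already passed the study's noise filter (not below log2 6 on more than 85% of arrays). Genes kept only through parental arrays include MTTP, SERPING1, SLC4A4, RELN, DUSP6, ETV4, LGR5, SULT2A1, FST, FABP1 and NTS. Those kept only through resistant arrays include SLPI, FBN2, EDIL3, IRAK3, TNIP3, STC1, GBP3, TNC, LGALS1, CYP1B1 and PDGFD. Of 11013 probe sets, 9851 had 1 gene symbol, 624 several and 538 none here; 77 symbols were updated, and the probe sets of 67 genes were averaged. The number of arrays limits the precision. In 59.9% of genes at least 2 arrays had equal values.

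Group means were fitted with limma 3.58.1 (R 4.3.3; lmFit, then eBayes with an intensity-dependent prior) over all 9 arrays with 6 residual degrees of freedom, adjusted by Benjamini-Hochberg, and the fit was tested on simulated data. The study's step for multiple testing, by an average count of false positives, was not repeated. Tables and figures used Python 3.11.15 with pandas 2.3.3, numpy 2.4.6 and matplotlib 3.10.9.

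Named genes were, among those passing with and without Huh7-S replicate 1 without overlap, the 12 largest rises and 12 largest falls after values below log2 6 were set to 6 and the 4 largest pool-clone differences each way; up to 3 members of each list passing with all arrays, where passing without replicate 1 was not required (TM7SF2 did not); and 19 genes fixed by name, of which 17 were measured. Any other gene with a value, list members included, was picked after its values were seen. The members and lists were chosen with earlier results of these data known. Same-numbered pool and clone arrays deviated together (correlations of 0.60, 0.49 and 0.42); the labels do not say that numbers mark a shared day. Alternatives covered scaling, the variance prior, array weights, low or equal values, thresholds, the replicate block and each array left out.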

Additional observations from a re-analysis of the deposited data

Results flagged for a closer look

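These 7 genes differed between the 2 resistant lines when each is set against Huh7-S: the difference of the effects, which is Huh7-R minus Huh7-R-A7, was tested beyond 2-fold with limma's treat and Benjamini-Hochberg adjustment over all genes. MBNL3, which regulates splicing, had a difference of 3.55 (adjusted p = 0.00641), MAGEB2, a cancer-testis antigen, 3.33 (adjusted p = 0.000442; at least 8.83-fold, its clone mean being below the noise limit of log2 6), and LGALS1, galectin-1, 3.01 (adjusted p = 0.00174). TNIP3, an inhibitor of NF-kB signalling, had a difference of 1.68 (adjusted p = 0.00159; at least 2.22-fold, for the same reason). Lower in the pool were ABCC2, an export pump, at -2.16 (adjusted p = 0.00646), ULBP3, a killer cell ligand, at -2.25 (adjusted p = 0.00559; at least 4.70-fold, its pool mean being below that limit), and MAGEC2, also a cancer-testis antigen, at -3.94 (adjusted p = 0.00011). No group had enough arrays for a test of outlying values.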

How the results depend on the processing

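In Huh7-R against Huh7-S, 4416 genes passed, and each array left out in turn gave 3392 to 4608 (1460 to 2016 higher, 1897 to 2592 lower). Restricting the table to the 3925 genes with 9 different values gave 2652 (1116 higher, 1536 lower). The count was lower because fewer genes were tested, but the share passing was above the 45.1% of all genes. An adjusted p below 0.01 gave 2919 (1678 lower). The study's limits gave 251 genes, 198 to 334 with an array left out. The fit on replicates 2 and 3 of each group, added after seeing the data, gave 382. In Huh7-R against Huh7-R-A7, 844 genes passed. The count was 393 to 1330 with an array left out (205 to 724 higher, 183 to 606 lower), 2474 with array weights (1182 higher, 1292 lower), 384 among genes with 9 different values (222 higher, 162 lower), 1810 on replicates 2 and 3 (841 higher, 969 lower) and 329 at an adjusted p below 0.01 (166 higher, 163 lower). Array weights were lowest for Huh7-S replicate 1 (0.176, against 3.08 for the highest); for the other changes the cause was not tested.

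With the replicate block 4569 genes passed in Huh7-R against Huh7-S (1899 higher, 2670 lower), 225 at the study's limits, and 1011 in Huh7-R against Huh7-R-A7 (511 higher, 500 lower). The block changed the call of none of the 145 named genes. Of the named genes 10 lost their call at an adjusted p below 0.01, 5 when values below log2 6 were set to 6 and 4 in a fit on the 6 arrays of the 2 groups. ESAM, below the noise limit in both lines, reversed under quantile normalization (difference -0.04, adjusted p = 0.638). TM7SF2, FZD5, HP and ITGA5, like EPCAM, FGB and AKR1C2, lost their call when some arrays were left out. The 3 arrays of a group come from 1 line, and values below log2 6 have no order.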

Other observations

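Some gene groups that the comparison did not single out also held large single changes in Huh7-R against Huh7-S. Mitochondrial fatty acid oxidation had 5 rises and 12 falls among 30 measured genes, against 19.0% higher and 26.2% lower of all genes. Yet CPT1A, which admits fatty acids to the mitochondrion, read 9.96, 9.97 and 9.71 in Huh7-R, against 6.30, 7.09 and 6.66 in Huh7-S, 9.17-fold higher. FABP1, the liver fatty acid binding protein, was at least 3.19-fold lower. Intestine-type genes split, with 5 rises and 5 falls among 12: CDH17, an intestinal cadherin, read 11.22, 12.51 and 12.64 in Huh7-R, against 4.80, 9.22 and 9.07 in Huh7-S (difference 4.43 with all arrays and 2.98 without Huh7-S replicate 1), and NTS, the peptide neurotensin, was at least 11.1-fold lower. SESN3, a sestrin that answers growth-factor withdrawal through FOXO factors, was 8.65-fold higher, and of the cell death genes of the BH3-only kind, BMF was at least 2.51-fold higher and BCL2L11 had a difference of 1.19. The TGF-beta family had 7 rises and 8 falls among 33, near the 19.0% higher and 26.2% lower of all genes. In it TGFB1 rose by 2.62 with all arrays and 3.34 without Huh7-S replicate 1. FST, the activin antagonist follistatin, was at least 4.17-fold lower.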
